A study of Mus musculus with 4 samples.

Results

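The cyclin-dependent kinase (CDK) inhibitor family was described here in fetal mouse liver surface cells that lack one of its members, p57, the product of Cdkn1c. The members were Cdkn1c, Cdkn1a, Cdkn1b, Cdkn2a, Cdkn2b, Cdkn2c, Cdkn2d and Cdkn3, 8 of the 18193 genes that the array annotation names on their own. They were found as all probe sets whose single gene symbol is a listed member, which gave 10 probe sets of 34945 with 1 symbol. Cdkn1a and Cdkn1b had 2 probe sets each and the other 6 genes had 1. The samples were p57-/- and p57+/+ C57BL/6 embryos at embryonic day 17.5, from which mesothelial cells, the sheet that covers the liver, and the submesothelial cells under it were isolated surgically. There were 2 arrays of each genotype, and the titles place 1 p57-/- and 1 p57+/+ array in experiment 1 and the same in experiment 2. The genotype is written Kip2 -/- in one label, Kip2 being an older name of Cdkn1c. The labels do not say how the p57 allele was made or whether a sample was 1 embryo or a pool. The p-values below therefore rest on how far these particular samples spread, part of which may be technical. They also rest on the spread of other probe sets of like signal, toward which the test draws each variance.

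CDK inhibitors slow the cell cycle by binding CDKs or their complexes with cyclins. The Cip/Kip proteins p21 (Cdkn1a), p27 (Cdkn1b) and p57 (Cdkn1c) act on a broad range of cyclin-CDK complexes, while the INK4 proteins p16 (Cdkn2a), p15 (Cdkn2b), p18 (Cdkn2c) and p19 (Cdkn2d) bind CDK4 and CDK6. Cdkn3 encodes a phosphatase that removes an activating phosphate from CDKs, and it is best known as a gene of cycling cells. Cdkn1c is imprinted and expressed from the maternal allele, and p57 is known for its part in growth and differentiation of the embryo.

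Each array gave a MAS5 signal per probe set on a linear scale and a detection call of Present, Marginal or Absent. Between 48.5% and 50.1% of probe sets were Present, and the lowest Present signal was 12.4 to 15.4. Markers of mesothelium were detected, with all 16 listed genes tested. None of the 16 passed the test described below, 5 were higher in both p57-/- arrays than in both p57+/+ arrays, 3 were lower, and the median log2 difference was 0.04. Of all 11656 tested genes, at 1 probe set each, 21.7% were higher without overlap and 19.0% lower. The transcription factor gene Wt1 had signals of 454 and 363 in p57-/- and 255 and 266 in p57+/+, and mesothelin, Msln, had 518 and 703 in p57-/- and 624 and 850 in p57+/+. Cells of other types contributed RNA, since markers of hepatocytes, red cell precursors, granulocytes, macrophages and endothelium were also Present. The hepatocyte gene Apoa1 had signals of 70026 and 69020 in p57-/- and 61858 and 70853 in p57+/+. The values below are those of the mixture and not of surface cells alone. In such a mixture, fewer cells of a type and less RNA per cell cannot be told apart.

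Cdkn1c signal was lost in p57-/-. It was 7.79 and 7.28 in p57-/-, Absent on both arrays, against 10255 and 9866 in p57+/+, Present on both. Each p57-/- array lay below the lowest Present signal, and the p57+/+ arrays differed by 1.04-fold. Counted against the lowest Present signal of each p57-/- array, Cdkn1c was 760-fold lower. This is not a firm lower limit, since calls are made per probe set: Cdkn2b was Absent at 83.2 in p57-/- replicate 1. The limma adjusted p of 1.80e-08 belongs to the fitted log2 change of -10.4, which takes the Absent readings as they are. Of the 22800 probe sets called Present on at least 2 arrays, and therefore tested, 0.00439% passed an adjusted p of 0.05, which was the 1 probe set of Cdkn1c. Cdkn1c itself passed the detection filter only through p57+/+.

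None of the relatives passed the test. Of their 9 probe sets, 7 from 5 genes were Present on all 4 arrays and were tested, and 0 of the 7 passed in limma. At an unadjusted p under 0.05 there was 1 of 7, beside 7.67% of all tested probe sets. The median log2 change, p57-/- minus p57+/+, was -0.09 over the 7 and 0.01 over all tested probe sets. The upper ends of their 95% intervals reached at most a 1.69-fold higher signal in p57-/- and the lower ends a ratio of 0.583, each interval taken alone. In the 12 alternative fits 0 relatives passed, and the lowest adjusted p among them was 0.140. Levels of different probe sets were not ranked, since probes differ in how strongly they bind, so each gene is compared only across arrays.

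**Figure D1:**
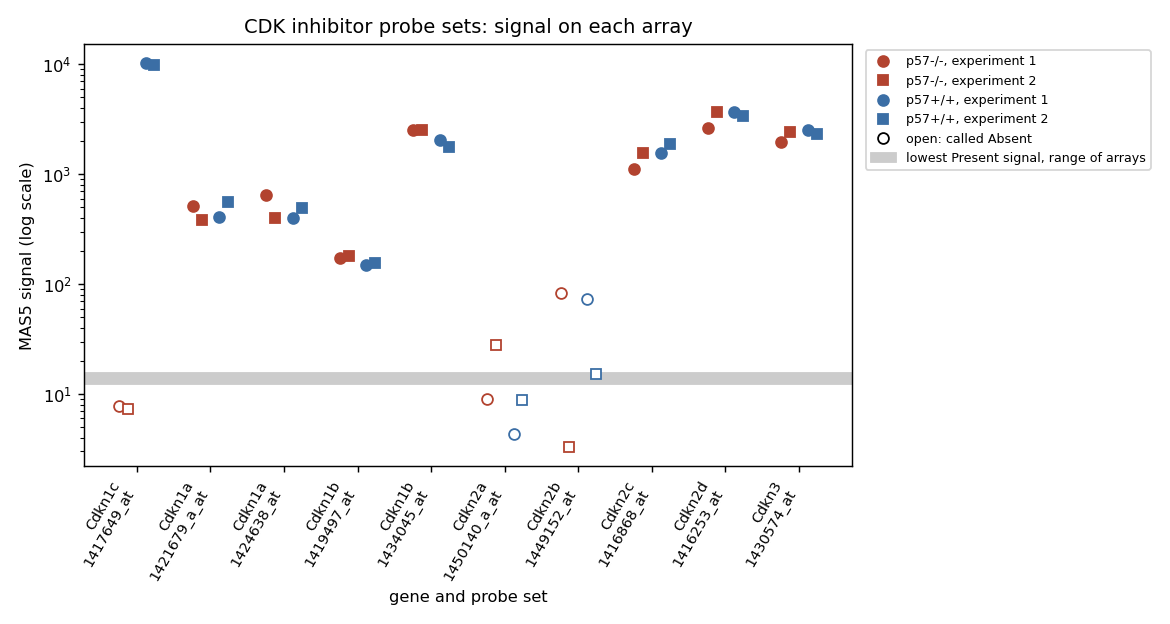
MAS5 signal (log scale) of the 10 probe sets of the family on each of the 4 arrays, p57-/- in red and p57+/+ in blue, circles for experiment 1 and squares for experiment 2. Open symbols were called Absent, and the grey band spans the lowest Present signal of the arrays, 12.4 to 15.4. Cdkn1c is under the band in p57-/- and at 10255 and 9866 in p57+/+. Cdkn2a and Cdkn2b are open throughout, and the other relatives are filled on all arrays.

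Cdkn1b, which encodes p27, was the tested relative whose arrays separated by genotype. With probe set 1434045_at it had signals of 2546 and 2504 in p57-/- and 2050 and 1789 in p57+/+. Both p57-/- arrays lay above both p57+/+ arrays. The log2 change was 0.40 (SE 0.13, 95% interval 0.10 to 0.70), or 1.32-fold, and did not pass (limma adjusted p = 0.563). Its unadjusted p of 0.0138 was larger than that of 560 of the 22800 probe sets, or 2.46%. The log2 difference was 0.31 in experiment 1 and 0.48 in experiment 2.

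The other Cdkn1b probe set, 1419497_at, had signals of 173 and 179 in p57-/- and 151 and 156 in p57+/+. Here too the genotypes did not overlap, and the difference was 0.20 in each experiment on the log2 scale. Its fitted log2 change was 0.20 (SE 0.25, 95% interval -0.36 to 0.76, limma adjusted p = 0.872). The SE exceeds the visible spread because limma draws each probe set's variance toward that of others of like signal. Both probe sets belong to Cdkn1b, so 1 of 5 tested relative genes was higher without overlap and 0 lower. Among all tested probe sets, 19.8% had both p57-/- arrays above both p57+/+ arrays and 18.8% had both below, and nothing is read from 1 gene against these shares. The log2 change of 1434045_at lay between 0.30 and 0.50 in the 12 alternative fits.

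The start of Cdkn1b is shown because it was the tested relative whose arrays separated by genotype. RefSeq's GRCm38.p6 window at chr6:134920151-134920450, plus strand, holds 250 bases before the annotated start and 50 after it. Capitals mark the GC box, spelled GGGCGG, and the box named after its letters CCAAT, each on either strand.
Cdkn1b: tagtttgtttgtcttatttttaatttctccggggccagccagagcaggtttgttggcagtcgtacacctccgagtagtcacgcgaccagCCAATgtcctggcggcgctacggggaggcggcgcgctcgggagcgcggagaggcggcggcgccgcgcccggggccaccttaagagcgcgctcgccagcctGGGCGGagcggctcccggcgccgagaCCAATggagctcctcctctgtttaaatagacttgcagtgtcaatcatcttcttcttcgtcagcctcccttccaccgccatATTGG
It held 1 GC box and 3 matches of the second, counting both strands, with no overlaps among them. None of the E2F-type strings TTTGGCGC, TTTCCCGC or TTTCGCGC was found. Of 32851 windows of this length, 35.7% held a GC box and 37.4% the second motif, against 0.514%, 1.07% and 0.323% for the 3 E2F-type strings. These are letters in a window and not measured binding. Windows were found for 7 of the 8 members.

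Cdkn1a, which encodes p21, the inhibitor best known as a p53 target, went opposite ways in the experiments with both of its probe sets. With 1421679_a_at the signals were 519 and 383 in p57-/- and 406 and 557 in p57+/+. The genotypes overlapped, with the highest and lowest arrays being p57+/+ replicate 2 and p57-/- replicate 2, both of experiment 2. The log2 difference was 0.36 in experiment 1 and -0.54 in experiment 2, with a fitted change of -0.09 (SE 0.23, 95% interval -0.60 to 0.41, limma adjusted p = 0.935). It turned to 0.13 without p57-/- replicate 2 and 0.14 without p57+/+ replicate 2.

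With 1424638_at the Cdkn1a signals were 641 and 403 in p57-/- and 400 and 490 in p57+/+. Here p57-/- replicate 1 stood above the other 3 arrays. The log2 difference was 0.68 in experiment 1 and -0.28 in experiment 2. The fitted change was 0.20 (SE 0.24, 95% interval -0.34 to 0.74, limma adjusted p = 0.866), and it turned to -0.14 without p57-/- replicate 1. The fitted changes of the 2 probe sets had opposite signs, while within each experiment they had the same sign. Opposite signs in the 2 experiments were seen in 4 of the 7 tested relative probe sets and in 45.3% of all tested probe sets.

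The INK4 genes divided into 2 that were detected and 2 that were not. Cdkn2c, which encodes p18, had signals of 1121 and 1572 in p57-/- and 1547 and 1881 in p57+/+. The genotypes overlapped, p57-/- replicate 2 lying just above p57+/+ replicate 1. It was lower in p57-/- in both experiments, by log2 values of -0.46 and -0.26. The fitted change was -0.36 (SE 0.19, 95% interval -0.78 to 0.05, limma adjusted p = 0.671). Without p57-/- replicate 1 it was -0.12, and without p57-/- replicate 2 it was -0.61.

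Cdkn2d, which encodes the INK4 protein p19, had signals of 2635 and 3691 in p57-/- and 3659 and 3393 in p57+/+. The lowest and the highest array were both p57-/-. The log2 difference was -0.47 in experiment 1 and 0.12 in experiment 2, with a fitted change of -0.18 (SE 0.16, 95% interval -0.55 to 0.19, limma adjusted p = 0.813). It turned to 0.0669 without p57-/- replicate 1.

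Cdkn2a encodes p16 and, from another start and reading frame, p19Arf, which acts through p53. Its probe set had signals of 8.97 and 28.0 in p57-/- and 4.36 and 8.76 in p57+/+, Absent on all 4 arrays with detection p-values of 0.534 to 0.905. Cdkn2b, which encodes p15, had readings of 83.2 and 3.28 in p57-/- and 73.8 and 15.3 in p57+/+, and was likewise Absent on all 4 arrays, with detection p-values of 0.399 to 0.916. No order or fold is given for these genes, since neither genotype had a call above background. They are neighbours on chromosome 4, with 1 annotated gene between them.

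Cdkn3 had signals of 1973 and 2447 in p57-/- and 2510 and 2308 in p57+/+. The lowest array was p57-/- replicate 1, and the other 3 lay within a narrow range. The log2 difference was -0.35 in experiment 1 and 0.08 in experiment 2, with a fitted change of -0.13 (SE 0.15, 95% interval -0.46 to 0.20, limma adjusted p = 0.849). It turned to 0.0240 without p57-/- replicate 1. The RefSeq GRCm38.p6 window at its start, chr14:46760291-46760590 on the plus strand, is shown because CCAAT boxes and CHR elements are known at promoters of genes of late cell cycle. Capitals mark these and the GC box, with the CHR spelled TTTGAA, on either strand.
Cdkn3: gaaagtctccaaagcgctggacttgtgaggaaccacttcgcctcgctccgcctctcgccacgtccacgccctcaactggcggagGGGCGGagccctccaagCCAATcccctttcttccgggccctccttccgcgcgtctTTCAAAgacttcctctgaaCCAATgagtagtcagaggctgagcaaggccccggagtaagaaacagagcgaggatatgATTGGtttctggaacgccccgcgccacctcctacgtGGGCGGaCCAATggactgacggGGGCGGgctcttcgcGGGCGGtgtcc
It held 4 matches of the CCAAT box, 4 of the GC box and 1 of the CHR, which 17.9% of all windows hold, and none of the 3 E2F-type strings.

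**Figure D2:**
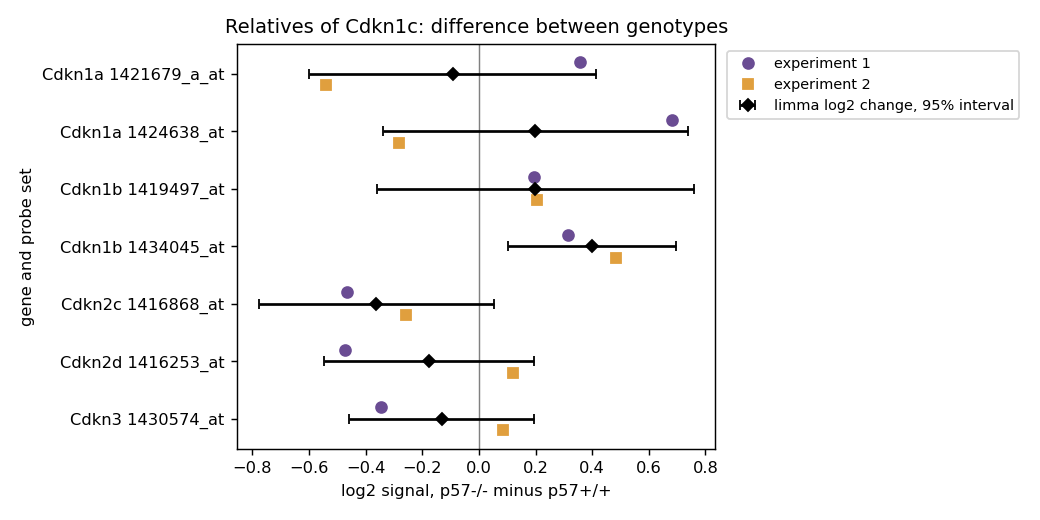
Log2 signal difference, p57-/- minus p57+/+, for the 7 tested probe sets of Cdkn1c's relatives. Diamonds are the limma estimates with 95% intervals from 2 arrays per genotype, circles experiment 1 and squares experiment 2. The interval of Cdkn1b 1434045_at, 0.10 to 0.70, is the one that leaves out 0, and for Cdkn1a, Cdkn2d and Cdkn3 the experiments lie on either side of 0.

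Cdkn2c, Cdkn2d and Cdkn3 had in common that p57-/- replicate 1 was the lowest array. Relative to the mean of the 4 arrays, it was at -0.42, -0.33 and -0.22 on the log2 scale. The tested mitotic genes, a list of 21 that includes Mki67 and Foxm1, had a median of -0.25 on that array, 0.18 on p57-/- replicate 2, and 0.00160 and 0.0697 on p57+/+ replicates 1 and 2. The 9 tested red cell genes had medians of -0.51 and 0.00994 in p57-/- and 0.17 and 0.29 in p57+/+. Of these 9, 8 were lower in p57-/- without overlap and 0 were higher, beside 19.0% and 21.7% of all tested genes. The summed signal of the 10 red cell markers named on the array was 68739 and 91244 in p57-/- and 101013 and 107657 in p57+/+, and the 1 probe set that names Hba-a1 alone was Absent throughout. The part of red cell precursors in these 3 genes' values was not tested.

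Beside Cdkn1b, lists of mesenchymal and granulocyte markers had more genes higher than lower without overlap in p57-/-, with none past the test. Of the 15 tested markers of submesothelial mesenchyme and stellate cells, 9 were higher without overlap and 2 lower, and their summed signal over 16 genes was 101943 and 91756 in p57-/- and 79311 and 86055 in p57+/+, with Des Absent on all arrays. Of 11 granulocyte markers, 8 were higher without overlap and 0 lower, with sums of 215989 and 223379 in p57-/- and 200012 and 202285 in p57+/+. Medians of the granulocyte list by array were 0.10 and 0.10 in p57-/- and -0.10 and -0.06 in p57+/+. Those of the mesenchymal list were 0.24 and -0.02 in p57-/- and -0.12 and -0.11 in p57+/+. The mesenchymal list's median log2 difference was 0.35 in experiment 1 and 0.08 in experiment 2. The shares over all tested genes were 21.7% higher and 19.0% lower. The part of these cells in the Cdkn1b values was not tested.

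**Figure D3:**
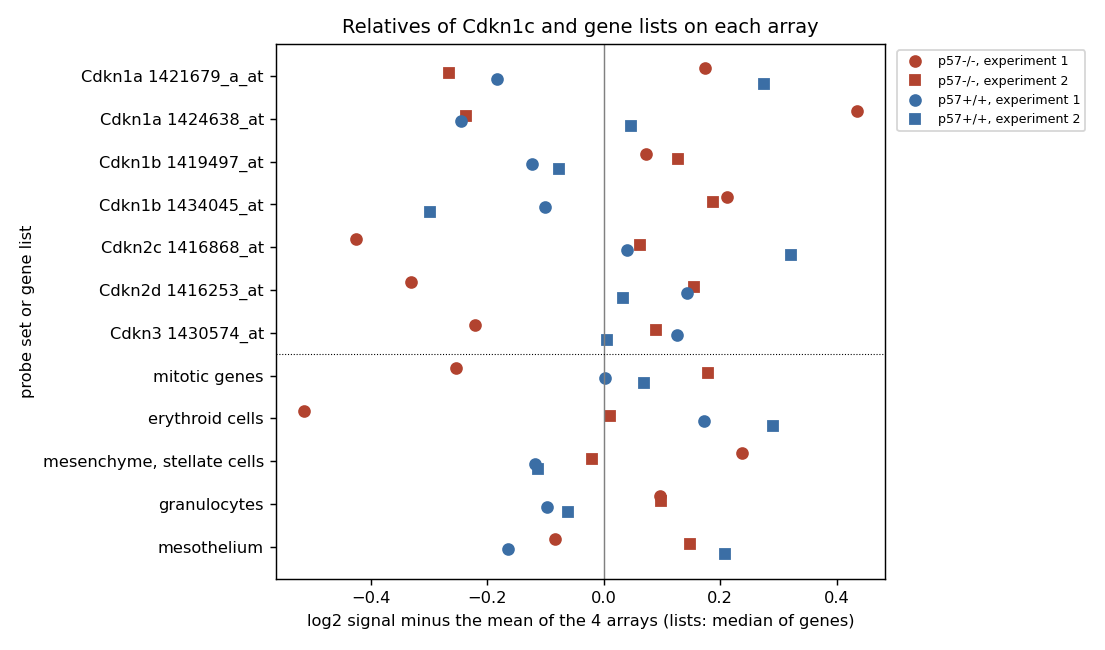
Log2 signal minus the mean of the 4 arrays for the 7 tested relative probe sets (above the dotted line) and, below it, the median of the tested genes in 5 lists, with p57-/- in red, p57+/+ in blue, circles for experiment 1 and squares for experiment 2. In p57-/- replicate 1, Cdkn2c, Cdkn2d and Cdkn3 lie lowest, at -0.42, -0.33 and -0.22, as do the mitotic list at -0.25 and the red cell list at -0.51.

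A list of CDKs, cyclins and some of their partners and activators was also examined, with 15 of 15 genes tested. None passed in limma, where 0.00858% of all tested genes did. At an unadjusted p under 0.05 there were 2, beside 7.67% of all tested probe sets. Of the 15, 4 were lower in p57-/- without overlap and 0 higher, beside 19.0% and 21.7% of all tested genes. The 4 were Ccnd1, Ccnd2, Cdc25a and Cdc37, the last named after its value was seen. The median log2 change was -0.16, beside 0.02 over all tested genes. The CDK genes Cdk1, Cdk2, Cdk4 and Cdk6, named after their values were seen, lay between -0.13 and -0.00302. Ccnd2, a D-type cyclin gene, had signals of 1324 and 873 in p57-/- and 2052 and 2425 in p57+/+, which put its log2 change at -1.05 (SE 0.20, limma adjusted p = 0.519). Ccnd1, another D-type cyclin gene, had 1013 and 1453 in p57-/- and 2231 and 2153 in p57+/+, which put its log2 change at -0.85 (SE 0.18, limma adjusted p = 0.519). Both passed with experiment as a block (limma adjusted p = 0.0254 and 0.0496). Without p57-/- replicate 1 the log2 changes of Ccnd2 and Ccnd1 were -1.35 and -0.59. Without p57-/- replicate 2 they were -0.75 and -1.11. Cdc25a, which encodes a phosphatase that activates CDKs, was at -0.31 (SE 0.15). The list's median was -0.01 without p57-/- replicate 1.

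Pocket proteins and E2F factors, which lie downstream of the CDKs, had 12 of 13 genes tested and none past the threshold in limma. There were 3 at an unadjusted p under 0.05, beside 7.67% of all tested probe sets. Of these 12, 6 were lower without overlap and 1 higher, beside 19.0% and 21.7% of all tested genes, and the median was -0.28, or -0.12 without p57-/- replicate 1. E2f6, a repressor of the E2F family, had 974 and 895 in p57-/- and 1245 and 1281 in p57+/+, with its log2 change at -0.44 (SE 0.14, limma adjusted p = 0.559). E2f8, an atypical E2F repressor, was at -0.51 (SE 0.18). It was at -0.77 without p57-/- replicate 2 and at -0.24 without p57-/- replicate 1. Tfdp2, a dimer partner of E2F proteins, was at -0.35 (SE 0.14), or -0.19 without p57-/- replicate 1. The list's medians by array, relative to the mean of the 4 arrays, were -0.25 and 0.0113 in p57-/- and 0.11 and 0.11 in p57+/+, beside those of the red cell list given above, and the part of red cell precursors was not tested.

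Genes that govern the amount of the Cip/Kip proteins were tested for 18 of 19, and none passed in limma. An unadjusted p under 0.05 was reached by 1, beside 7.67% of all tested probe sets. Of the 18, 3 were higher without overlap and 2 lower, beside 21.7% and 19.0% of all tested genes. The median was -0.02, or -0.10 without p57-/- replicate 2. Klf6, a zinc finger factor known to activate Cdkn1a, had 1552 and 1489 in p57-/- and 978 and 1046 in p57+/+, which put its log2 change at 0.59 (SE 0.14, limma adjusted p = 0.519). Both p57-/- arrays lay above both p57+/+ arrays. Myc, which represses Cdkn1a, was at 0.25 (SE 0.13), and Dtl, whose product directs p21 to degradation, at -0.37 (SE 0.18), or -0.15 without p57-/- replicate 1. Skp2 and Cks1b, which direct p27 to degradation, were at -0.22 (SE 0.16) and 0.02 (SE 0.12), and Foxo1 and Foxo3, activators of Cdkn1b, at 0.14 (SE 0.17) and -0.25 (SE 0.20). These 4 were named after their values were seen.

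Of the p53 axis, 15 of 19 genes were tested and none passed in limma. An unadjusted p under 0.05 was reached by 0, beside 7.67% of all tested probe sets. Of the 15, 2 were higher without overlap and 2 lower, beside 21.7% and 19.0% of all tested genes, with a median of 0.10, or -0.04 without p57-/- replicate 1. Btg2, an antiproliferative gene, and Perp, a junction gene, both p53 targets, were at -0.24 (SE 0.13) and -0.24 (SE 0.14). Gadd45a, a stress gene, was at 0.29 (SE 0.16), with 2973 and 2356 in p57-/- and 1998 and 2360 in p57+/+, and was at 0.12 without p57-/- replicate 1. Mdm2, which encodes the ligase that degrades p53 and was named after its value was seen, was at 0.11 (SE 0.17).

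Regulators of the Cdkn2a and Cdkn2b locus were tested for 19 of 22 genes, and none passed in limma. There were 3 at an unadjusted p under 0.05, beside 7.67% of all tested probe sets. Of the 19, 6 were higher without overlap and 2 lower, beside 21.7% and 19.0% of all tested genes. The median was 0.04, or 0.12 without p57-/- replicate 2 and 0.13 with the mean of all tested probe sets per gene. Ets2, known in human cells to activate the gene of p16, had 3684 and 2763 in p57-/- and 2106 and 2382 in p57+/+, which put its log2 change at 0.51 (SE 0.16, limma adjusted p = 0.549). Rnf2, a Polycomb ligase gene, was at 0.30 (SE 0.13), and Tbx3, a repressor of p19Arf, at 0.68 (SE 0.30). Ets2 was at 0.30 without p57-/- replicate 1, and Tbx3 at 0.29 without p57+/+ replicate 2 and 1.08 without p57+/+ replicate 1. Cdkn2a and Cdkn2b were Absent in both genotypes beside these values.

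Mitotic genes were tested for 21 of 22, and none passed in limma. At an unadjusted p under 0.05 there were 0, beside 7.67% of all tested probe sets. Of the 21 genes, 3 were lower in p57-/- without overlap and 0 higher, beside 19.0% and 21.7% of all tested genes. Foxm1, a transcription factor of mitotic genes, had 130 and 161 in p57-/- and 210 and 218 in p57+/+, which put its log2 change at -0.56 (SE 0.25, limma adjusted p = 0.642). Mki67, the gene of the Ki-67 antigen, was at -0.25 (SE 0.14) and Cenpe, a kinetochore motor gene, at -0.27 (SE 0.17). Without p57-/- replicate 1 these 2 were at -0.0436 and -0.0700. The list's median was -0.09, with -0.28 in experiment 1 and 0.08 in experiment 2, and Cdkn3 gave -0.35 and 0.08. Without p57-/- replicate 1 the median was 0.15.

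**Figure D4:**
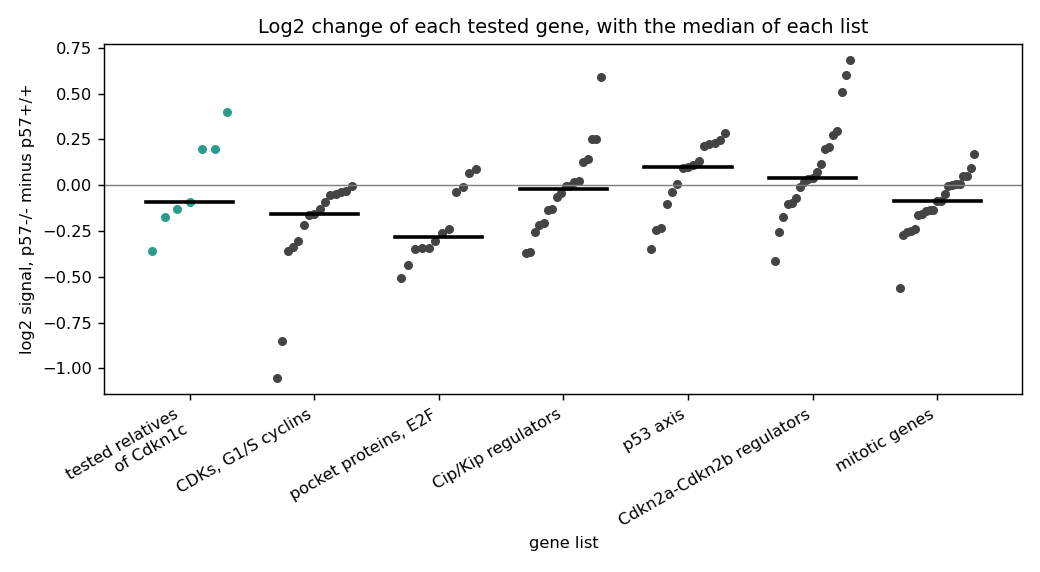
Log2 signal difference, p57-/- minus p57+/+, of each tested probe set of Cdkn1c's relatives (green) and of each tested gene in 6 pathway lists (grey), sorted within each list, with a bar at the median. Medians run from -0.28 for pocket proteins and E2F factors to 0.10 for the p53 axis, and Ccnd2 and Ccnd1 are the 2 lowest points, at -1.05 and -0.85.

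Genes with the most similar pattern over the 4 arrays were ranked by the Euclidean distance between log2 signals centred on each probe set's mean. The 3 genes nearest to Cdkn1c were Thrsp, Xpo7 and Gm19500. All were Absent on both p57-/- arrays, as Cdkn1c was, so which genes came out nearest rests on Absent readings. Their distances and order rest on them too and are not given. Within 0.1 of Cdkn1c lay 0 probe sets, so none is called close to it. For the relatives the nearest genes were Zfp397 and Tcn2 for the 2 Cdkn1a probe sets, Tfcp2 and Scaper for the 2 of Cdkn1b, Smim5 for Cdkn2c, Nfatc2ip for Cdkn2d and Ccdc134 for Cdkn3. Between 21 and 377 probe sets lay within 0.1 of each relative, so with 4 arrays these patterns were shared by many.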

How the data were processed

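Each of 4 samples was read on 1 single-colour Affymetrix array of 45101 probe sets, of which 64 were controls, from cRNA made from 250 ng of total RNA, per the labels' protocols. The authors deposited a MAS5 signal intensity per probe set, scaled to a trimmed mean of 500.003 on each array, and a detection p-value with its call, per the file headers. The submitters' processing notes name MAS5 without a version. Scaling to one mean hides a change in total RNA, and the number of arrays limits the precision. The series value table held the same signals to within 0.0005%.

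Signals were log2 transformed. Probe sets Present on at least 2 of 4 arrays were fitted with limma 3.58.1 in R 4.3.3 (eBayes with a variance trend, no block, two-sided), with Benjamini-Hochberg adjustment over all 22800 and a threshold of 0.05. The procedure was tested on simulated data. Errors are SEs of the log2 change, n = 2 per genotype. For list changes and counts, each gene was taken at its tested probe set of highest mean log2 signal. Summed signals and Absent notes took the highest among all probe sets of the gene, tested or not. No set test was run. Named genes were all members, the 3 of smallest p in each pathway list, and the nearest genes by pattern. Wt1, Msln, Apoa1, Des, Hba-a1 and others so marked were named after their values were seen. Members and lists were chosen with earlier results of these data known. Symbols came from the platform annotation, and promoter windows and gene order from RefSeq tables. Alternatives covered the block, normalization, offset, detection filter, variance trend, value source and each array left out.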

Additional observations from a re-analysis of the deposited data

How the results depend on the processing

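Cdkn1c, the lost gene, was lower in p57-/- in the 11 alternative fits that tested it. This checks the genotype labels and no more, since it was Present in p57+/+ alone. Cdkn1c was not tested where Present calls were required on all 4 arrays, which left 0 lower calls. No relative passed in any of the 12 alternatives. With the replicate block, the fit called 10 probe sets higher and 20 lower, with 2 kinase or cyclin genes past the threshold, and it changed no call of the family. Same-numbered arrays had deviations from their genotype means that correlated at 0.00460 over 22800 probe sets, and the main fit took no block. This does not show that experiment was without effect. Relative to the mean of the 4 arrays, medians of the mesothelium list were -0.08 in p57-/- and -0.16 in p57+/+ of experiment 1. In experiment 2 they were 0.15 and 0.21. Leaving out 1 array at a time gave 1 to 98 probe sets higher and 1 to 123 lower (98 and 123 without p57-/- replicate 2), 0 to 1 kinase or cyclin gene and 0 to 1 pocket or E2F gene past the threshold. It reversed the uncalled log2 changes of Cdkn1a (-0.32 to 0.14 with 1421679_a_at and -0.14 to 0.53 with 1424638_at), Cdkn2d (-0.42 to 0.0669) and Cdkn3 (-0.29 to 0.0240). The 8 alternatives on all 4 arrays reversed none. In fits without 1 array, the lone sample of its genotype is assumed to vary like the others. The cause of these differences was not tested beyond the arrays named. Probe sets near the lowest Present signals, 12.4 to 15.4, hold no measured difference.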
